A study of Homo sapiens with 12 samples.

Results

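MYC, its 3 partner genes MAX, MXD1 and MXI1, and 32 genes of ribosome production were followed in stimulated breast cancer cells. These 36 features, of 24331 in the deposited table, were chosen by gene symbol from a list of nucleolar and RNA polymerase I genes. All 36 were found and passed the filter on low values. MYC is a transcription factor that pairs with MAX and raises the expression of genes for growth, among them many that build ribosomes. MXD1 and MXI1 also pair with MAX and compete with MYC for the same DNA motif, the E-box. Ribosome production starts in the nucleolus, where RNA polymerase I transcribes the ribosomal RNA precursor. Small nucleolar ribonucleoproteins (snoRNPs) then modify that precursor and guide its cleavage, and separate sets of assembly factors build the small and the large subunit.

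RNA-sequencing was performed on MDA-MB-231 cells, a metastatic triple-negative human breast cancer line, stimulated for 0, 6 or 24 h with PMA/Ionomycin. PMA is a phorbol ester that activates protein kinase C, and Ionomycin is an ionophore that raises cytosolic calcium. The wild-type (WT) cells were unedited, and the CRE-deleted (ΔCRE, labelled KO) cells had lost a stretch of the ETS1 promoter with NFAT and NF-κB sites after transient transfection of Cas9 with a pair of guide RNAs. The 6 groups of 2 libraries were therefore WT and ΔCRE cells at 0, 6 and 24 h, 12 libraries in all. How many edited clones the ΔCRE libraries come from is not given in the sources used here, so the deletion and a clone cannot be told apart. The study's methods call the replicates biological without saying what was separate (cultures or stimulations), and p-values measure only the spread between these libraries. Expression is given in FPKM, fragments per kilobase of transcript relative to the mapped total of its library, and depth cannot be recovered from it. FPKM is a share of a library's fragments: a change in RNA per cell, or fewer cells of one kind, cannot be told apart from it.

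ETS1 itself was measured at 24 and 23.7 FPKM at 0 h, 139 and 145 at 6 h and 36.2 and 39.7 at 24 h in WT cells. ETS1 in ΔCRE cells was at 16.5 FPKM at 0 h (replicate 2), 62.8 and 62.2 at 6 h and 29.3 and 30.7 at 24 h, with 5.08 in replicate 1 at 0 h, lower than in WT cells at each time point. The 5 markers of MDA-MB-231 cells (VIM, CD44, AXL, CAV1 and FOSL1) were each present, with a sum of 1979 to 3570 FPKM in 11 libraries and 1536 in ΔCRE 0 h replicate 1. This library stood apart. Its FPKM values summed to 1.42333e+06 against 566255 to 651080 in the other 11, and 43.0% of that sum fell on ribosomal protein genes against 24.6% to 27.0%. Gut epithelium markers summed to 2463 FPKM in it, with 7 of 8 at 1 FPKM or more (CDX2 at 55.3 and PHGR1 at 1478), and to 0.059 to 0.915 FPKM in the other 11, where 3 of the 8 were at 0 throughout. Markers of luminal breast epithelium summed to 2.42 to 4.63 FPKM in the 11 libraries and to 55.9 in it. Most of that sum was CDH1 (52.3 FPKM). GATA3 (2.38) and FOXA1 (1.24) lay within the range of the other 11, PGR was at 0.013 and ESR1 at 0. The values of this library are given but left out of the tests, so that 1 library (replicate 2) stands for ΔCRE cells at 0 h and is assumed to vary like the other groups. Counts with all 12 libraries in the fit are given beside the main ones.

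The E-box that MYC and MAX bind best reads CACGTG, which is its own reverse complement, so that 1 search covers both strands. RefSeq promoter windows (GRCh38.p14, 250 bases before to 50 after the start) were on hand for 28 of the 36 genes. The motif occurred in 10 of the 28 (35.7%), against 12.7% of 8493 genes with a tested feature and a window and 8.77% of all 27305 genes with one. The 10 were DDX21, WDR43, RRP9, UTP20, GNL3, NOP14, FBL, BYSL, NOP2 and PES1. To show where it lies, 110 bases are printed for 5 of them, with the motif in capitals. The bases run from 80 before to 30 after the start, 5′ to 3′ on the gene's strand. The 5 are WDR43 (chr2:28894587-28894696, + strand), RRP9 (chr3:51941875-51941984, - strand), UTP20 (chr12:101280025-101280134, + strand), GNL3 (chr3:52685952-52686061, + strand) and NOP14 (chr4:2963377-2963486, - strand).
WDR43: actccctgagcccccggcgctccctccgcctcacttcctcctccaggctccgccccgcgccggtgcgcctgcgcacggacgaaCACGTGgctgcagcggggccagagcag
RRP9: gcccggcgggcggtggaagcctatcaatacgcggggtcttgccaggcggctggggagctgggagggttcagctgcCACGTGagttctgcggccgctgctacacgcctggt
UTP20: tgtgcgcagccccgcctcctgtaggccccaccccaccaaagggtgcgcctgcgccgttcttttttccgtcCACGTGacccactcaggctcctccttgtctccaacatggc
GNL3: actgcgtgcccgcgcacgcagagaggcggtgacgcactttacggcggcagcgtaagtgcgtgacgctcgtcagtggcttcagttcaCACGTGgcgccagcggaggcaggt
NOP14: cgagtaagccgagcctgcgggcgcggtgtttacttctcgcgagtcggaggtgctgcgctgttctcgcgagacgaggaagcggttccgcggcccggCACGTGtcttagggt

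The printed windows were chosen to hold the motif, so its distance from the start in them is a description. Counted from 1 at the start, it covered bases 4 to 9 in WDR43, 7 to 12 in GNL3 and FBL, 14 to 19 in PES1 and 16 to 21 in NOP14. In BYSL (29 to 34) and NOP2 (36 to 41) it reached past the 30 bases after the start. It began 5 bases before the start in RRP9, 10 before it in UTP20 and 31 before it in DDX21. A match to these letters is a description of the sequence and not a measured binding site, and binding of MYC was not measured in these libraries. Between 6 and 24 h in WT cells, 9 of the 10 genes with the motif and 12 of the 18 without it fell (adjusted p under 0.05, limma). The median log2 fold change was -0.43 with the motif and -0.29 without it, and this difference was not tested. A second feature that was not used to choose the genes is the small nucleolar RNAs carried inside them. On the same strand, 9 of the 36 genes (25%) contained an annotated snoRNA or related small RNA gene (GENCODE, GRCh37), against 2.77% of 10099 protein-coding genes with a tested feature. They included GNL3, NOP56, NOP58, NCL, WDR43, DKC1 and PPAN, whose proteins act in the same pathway as the RNAs they carry.

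Across the 36 genes the dominant pattern was a rise or little change at 6 h and a drop at 24 h, and it was seen in both genotypes. In WT cells 29 of 36 were lower at 24 h than at 6 h and 1, MXI1, was higher, whereas 26.3% of the 11256 features tested were lower and 20.5% higher. In ΔCRE cells 28 were lower and again MXI1 was higher, against 27.5% and 22.1% of features. All 28 that fell in ΔCRE cells also fell in WT cells. The comparisons share no libraries, but both use the same estimate of the spread of each gene, so their calls are not independent. HEATR1 passed the threshold of limma in WT cells alone (log2 fold change -0.35 ± 0.09, adjusted p = 0.013, against -0.21 ± 0.09, adjusted p = 0.076 in ΔCRE cells, adjusted p of the difference = 0.94). The median log2 fold change of the 36 was -0.50 in WT and -0.47 in ΔCRE cells, against -0.04 and -0.03 over all features. The group mean of log2(FPKM + 1) was highest at 6 h and lowest at 24 h for 25 of 36 genes (69.4%) in each genotype. The same held for 16% of features in WT and 18% in ΔCRE cells, and in both genotypes for 21 genes (58.3%) against 10.5% of features. For ΔCRE cells at 0 h this mean is replicate 2 alone.

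**Figure D1:**
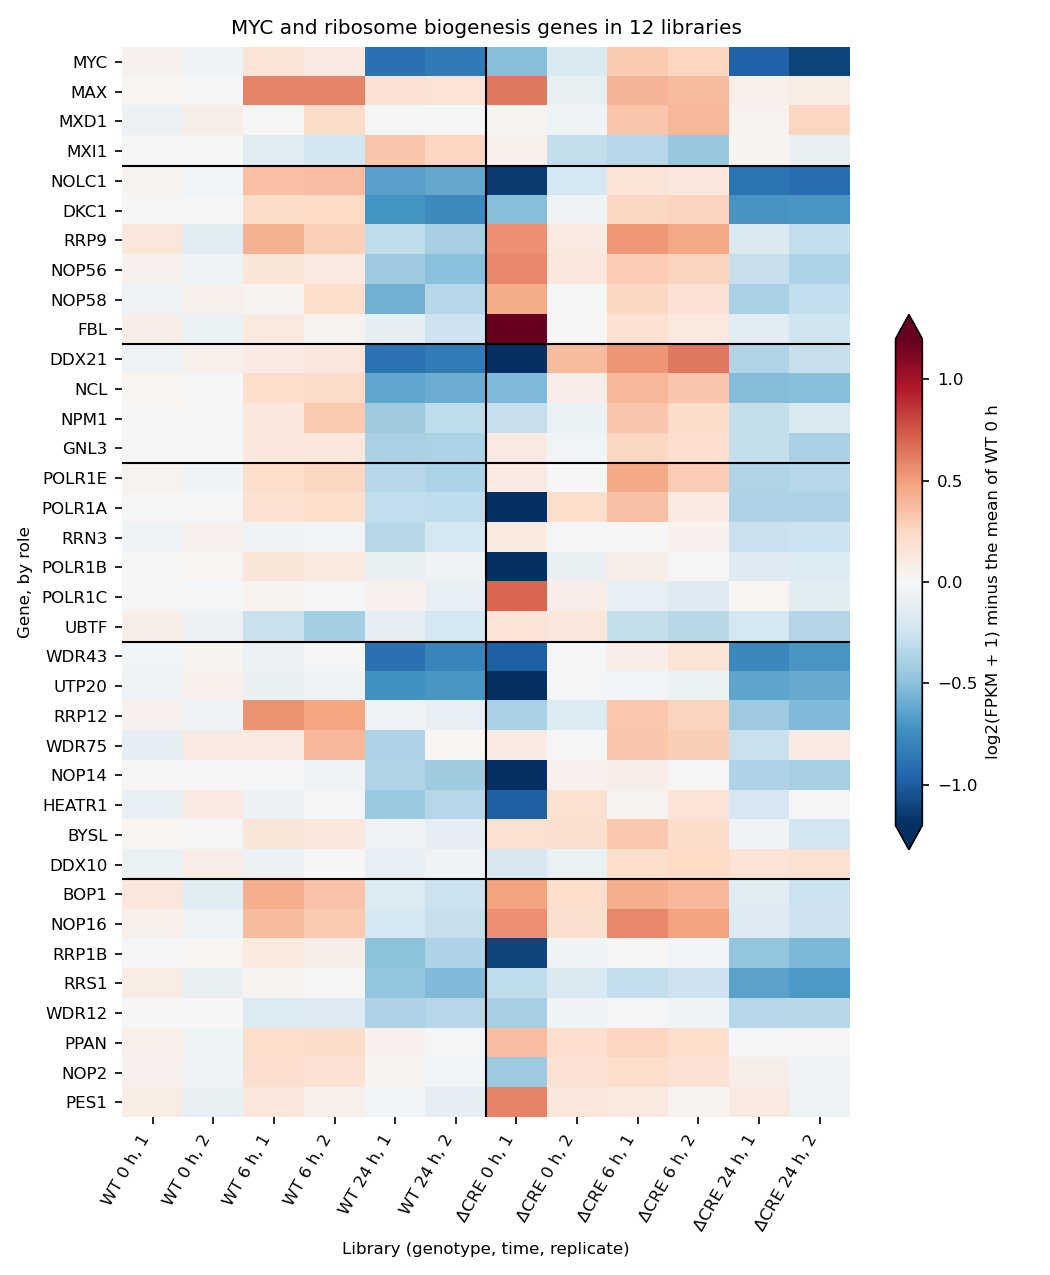
Each cell shows log2(FPKM + 1) of a gene (vertical axis, grouped by role) in 1 library (horizontal axis) minus the mean of the WT 0 h libraries, with blue for lower and red for higher values. The 24 h libraries of both genotypes are mostly blue and the 6 h libraries mostly pale or red, while ΔCRE 0 h replicate 1 follows no other library.

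The fall between 6 and 24 h was present in most roles. It covered 6 of 6 snoRNP genes, 4 of 4 nucleolar proteins, 7 of 8 large subunit factors, 6 of 8 small subunit factors and 4 of 6 RNA polymerase I genes in WT cells. The counts in ΔCRE cells were 6, 4, 7, 5 and 4. The 6 genes not called in WT cells were MXD1, PES1, POLR1C, UBTF, DDX10 and WDR75. Rescaling each library to the same FPKM total (TPM) moved the median of all features by 0.10 in this comparison in WT cells and by 0.09 in ΔCRE cells. With TPM 21 of 36 genes in WT and 25 in ΔCRE cells were still lower, against 1780 and 2082 of 11256 features. In WT cells the falls of FBL, POLR1B, RRN3, HEATR1, BYSL, NOP2, WDR12 and PPAN then missed the threshold, and in ΔCRE cells those of POLR1B, RRN3 and NOP2. With all 12 libraries in the fit, 10 genes in WT cells (5.65% of features in either direction) and 12 in ΔCRE cells (8.09%) were called, all of them lower.

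**Figure D2:**
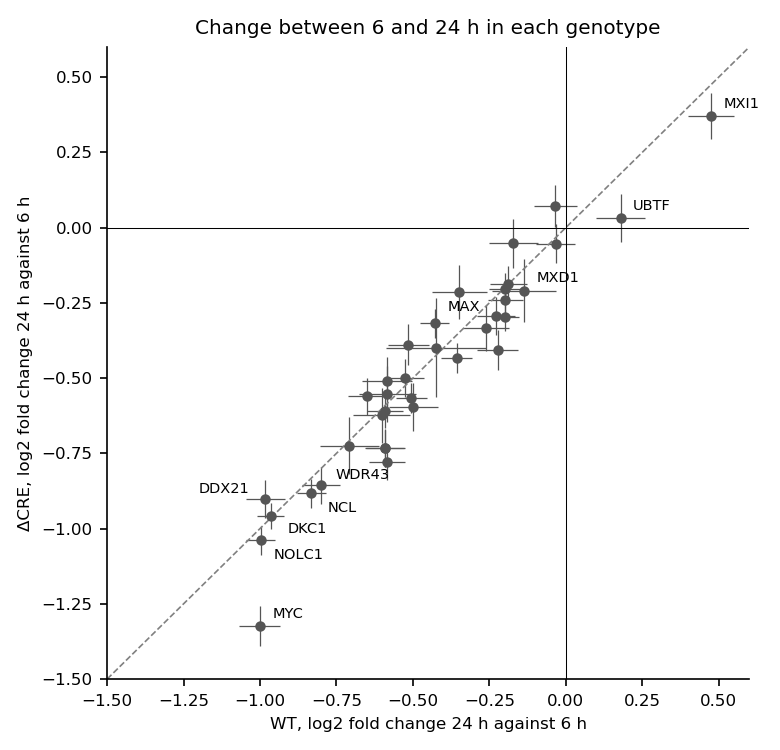
Log2 fold change at 24 h against 6 h in WT cells (horizontal axis) and in ΔCRE cells (vertical axis) for the 36 genes. Points are estimates, bars are standard errors and the dashed line marks equal change, on which most genes lie close while MYC sits below it (-1.0 in WT and -1.32 in ΔCRE cells).

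MYC had the largest fall of the 36 genes from 6 to 24 h in ΔCRE cells, and in WT cells it shared that place with NOLC1. In WT cells MYC was at 32 and 29.6 FPKM at 0 h, 34.4 and 32.9 at 6 h and 16.1 and 16.6 at 24 h. MYC in ΔCRE cells was at 27.2 FPKM at 0 h (replicate 2), 38.5 and 37 at 6 h and 15.2 and 13.7 at 24 h, with 21.2 in replicate 1 at 0 h. In each genotype both 24 h libraries lay well below every 0 h and 6 h library. By 24 h MYC had fallen to 48.5% of its 6 h mean in WT cells (log2 fold change -1.0 ± 0.07, adjusted p = 1.8e-05) and to 38.4% in ΔCRE cells (-1.32 ± 0.07, adjusted p = 3.2e-06), where ± gives the standard error and the adjusted p comes from limma. The difference between these falls was -0.32 ± 0.09 and did not pass the threshold (adjusted p = 0.45). At 6 h MYC rose in ΔCRE cells (log2 fold change 0.46 ± 0.08, adjusted p = 0.0037), from a 0 h level that rests on replicate 2. The WT value at 6 h was 0.13 ± 0.07 (adjusted p = 0.16), and whether it differs from the ΔCRE value was not tested. Between genotypes MYC did not pass the threshold at 0, 6 or 24 h (-0.17, 0.16 and -0.16, adjusted p from 0.19 to 0.38).

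MAX, the partner that MYC needs to bind DNA, rose and then fell. MAX in WT cells was at 21.3 and 20.5 FPKM at 0 h, 32.2 and 32.2 at 6 h and 23.7 and 23.6 at 24 h. MAX in ΔCRE cells was at 19.6 FPKM at 0 h (replicate 2), 28 and 27.5 at 6 h and 21.9 and 22.2 at 24 h, with 33 in replicate 1 at 0 h. The 6 h libraries were the highest of each genotype, apart from the set-aside library. The rise at 6 h had a log2 fold change of 0.60 ± 0.05, adjusted p = 2.9e-05 in WT cells, the largest of the 36 genes, and of 0.48 ± 0.06, adjusted p = 0.00053 in ΔCRE cells. MAX then fell between 6 and 24 h in WT (-0.43 ± 0.05, adjusted p = 0.00022) and in ΔCRE cells (-0.32 ± 0.05, adjusted p = 0.00087), and in WT cells it was still above 0 h at 24 h (0.17 ± 0.05, adjusted p = 0.016). At 6 h both ΔCRE libraries were below both WT libraries (-0.21 ± 0.05, adjusted p = 0.032). The feature read for MAX extends 91814 bases past the annotated gene, so its FPKM may include reads of other transcripts.

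MXI1, a competitor of MYC for MAX, moved against the rest. MXI1 in WT cells was at 4.96 and 5.1 FPKM at 0 h, 4.47 and 4.18 at 6 h and 6.59 and 6.2 at 24 h. MXI1 in ΔCRE cells was at 3.94 FPKM at 0 h (replicate 2), 3.74 and 3.41 at 6 h and 5.16 and 4.67 at 24 h, with 5.29 in replicate 1 at 0 h. Within each genotype the 24 h libraries were the highest of the libraries tested. MXI1 was higher at 24 h than at 6 h in WT (log2 fold change 0.47 ± 0.08, adjusted p = 0.0013) and in ΔCRE cells (0.37 ± 0.08, adjusted p = 0.0041). MXD1, which has the same role, was low in each library. MXD1 in WT cells was at 2.77 and 3.15 FPKM at 0 h, 2.99 and 3.62 at 6 h and 2.91 and 2.91 at 24 h. MXD1 in ΔCRE cells was at 2.82 FPKM at 0 h (replicate 2), 3.97 and 4.2 at 6 h and 3.08 and 3.74 at 24 h, with 3.03 in replicate 1 at 0 h. In WT cells the 0 h range of MXD1 overlapped those at 6 and 24 h, and of the time comparisons only its rise at 6 h in ΔCRE cells passed the threshold (0.41 ± 0.13, adjusted p = 0.042), against the lone replicate 2 at 0 h. At these low levels a log2 fold change of FPKM + 1 understates the change in FPKM.

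**Figure D3:**
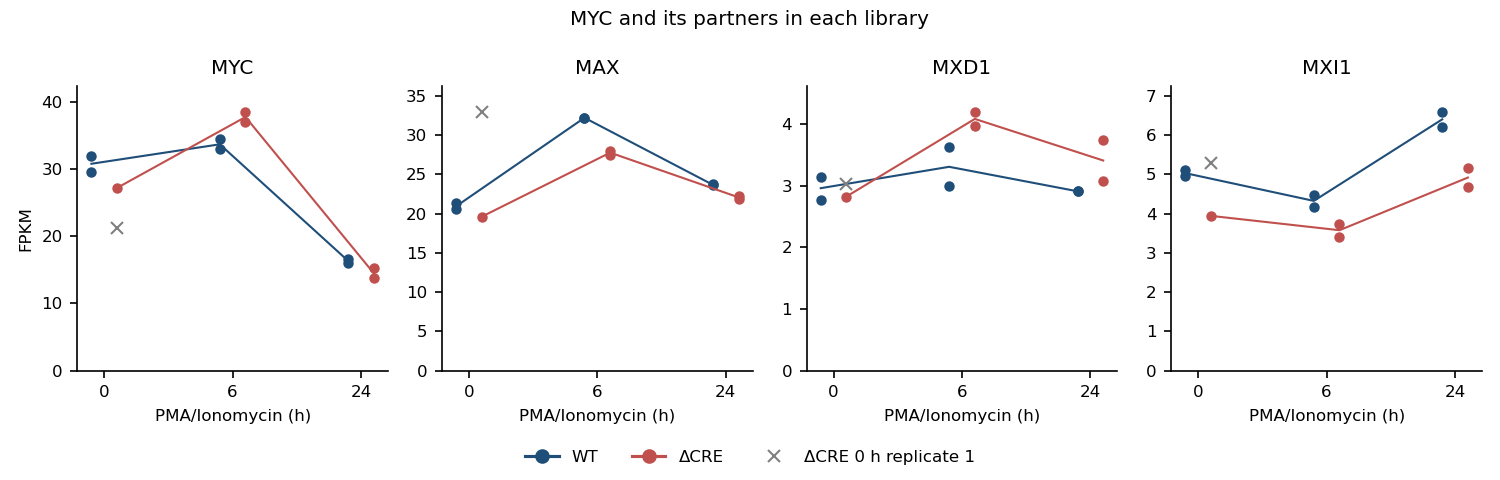
FPKM of MYC, MAX, MXD1 and MXI1 (vertical axes, from 0) at 0, 6 and 24 h of PMA/Ionomycin (equally spaced) in WT (blue) and ΔCRE (red) libraries. Each point is 1 library, lines join group means, and the grey cross is ΔCRE 0 h replicate 1, which is left out of the mean. MYC drops to 13.7 to 16.6 FPKM in the 4 libraries at 24 h while MXI1 is highest then.

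All 6 snoRNP genes fell between 6 and 24 h in both genotypes. NOLC1, a chaperone of snoRNPs, fell as far as MYC in WT cells. NOLC1 in WT cells was at 125 and 119 FPKM at 0 h, 157 and 158 at 6 h and 77.2 and 79.4 at 24 h. NOLC1 in ΔCRE cells was at 105 FPKM at 0 h (replicate 2), 136 and 133 at 6 h and 65.8 and 64.1 at 24 h, with 54.5 in replicate 1 at 0 h. Both genotypes peaked at 6 h and had their lowest values at 24 h, apart from the set-aside library. NOLC1 rose at 6 h in WT (log2 fold change 0.37 ± 0.05, adjusted p = 0.00044) and ΔCRE cells (0.35 ± 0.06, adjusted p = 0.0028) and fell between 6 and 24 h (-1.0 ± 0.05, adjusted p = 3.2e-06 in WT, -1.04 ± 0.05, adjusted p = 2e-06 in ΔCRE cells). DKC1, the pseudouridine synthase of H/ACA snoRNPs, was not called between genotypes at any time (0.03 at 6 h and 0.04 at 24 h). DKC1 in WT cells was at 109 and 107 FPKM at 0 h, 125 and 127 at 6 h and 65 and 63.2 at 24 h. DKC1 in ΔCRE cells was at 104 FPKM at 0 h (replicate 2), 128 and 129.7 at 6 h and 65.7 and 66 at 24 h, with 75.2 in replicate 1 at 0 h. By 24 h DKC1 had fallen to 50.9% of its 6 h mean in WT and 51.1% in ΔCRE cells (-0.96 ± 0.04, adjusted p = 2.6e-06 and -0.96 ± 0.04, adjusted p = 2e-06).

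The C/D box snoRNPs, which methylate ribosomal RNA, are built on NOP56, NOP58 and the methyltransferase FBL, and RRP9 belongs to the U3 snoRNP that acts in cleavage of the precursor. RRP9 in WT cells was at 51.9 and 42.7 FPKM at 0 h, 63.7 and 57.5 at 6 h and 37.8 and 35.5 at 24 h. RRP9 in ΔCRE cells was at 50.7 FPKM at 0 h (replicate 2), 67.8 and 65.5 at 6 h and 41.7 and 38.3 at 24 h, with 69.2 in replicate 1 at 0 h. The 24 h libraries were the lowest of both genotypes, and RRP9 fell between 6 and 24 h (-0.71 ± 0.10, adjusted p = 0.00054 in WT and -0.72 ± 0.10, adjusted p = 0.00044 in ΔCRE cells) after a rise at 6 h (0.35 ± 0.10, adjusted p = 0.017 and 0.39 ± 0.12, adjusted p = 0.038). NOP56 fell to 66.3% of its 6 h mean in WT cells and NOP58 to 66.5%, with 65.5% and 67.9% in ΔCRE cells. FBL moved least of the 6, to 83.5% in WT (-0.26 ± 0.08, adjusted p = 0.022) and 79.3% in ΔCRE cells. The rises at 6 h of NOP56, NOP58 and FBL did not pass the threshold in either genotype (log2 fold changes of 0.08 to 0.24).

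Of the nucleolar proteins, NPM1 and NCL were the most abundant genes of the set on the FPKM scale. NCL, a chaperone of ribosomal RNA, was at 822 and 801 FPKM at 0 h, 938 and 954 at 6 h and 525 and 537 at 24 h in WT cells. NCL in ΔCRE cells was at 855 FPKM at 0 h (replicate 2), 1069.7 and 1024 at 6 h and 565 and 570.2 at 24 h, with 560.2 in replicate 1 at 0 h. Every 24 h library was below every 0 h and 6 h library tested. NCL rose at 6 h (0.22 ± 0.05, adjusted p = 0.0064 in WT and 0.29 ± 0.06, adjusted p = 0.0071 in ΔCRE cells) and fell to 56.1% and 54.2% of its 6 h mean by 24 h (-0.83 ± 0.05, adjusted p = 9.2e-06 and -0.88 ± 0.05, adjusted p = 5.3e-06). NPM1, a histone and ribosome chaperone, was at 2466 and 2406 FPKM at 0 h, 2662 and 3023 at 6 h and 1807 and 1976 at 24 h in WT cells. NPM1 in ΔCRE cells was at 2309 FPKM at 0 h (replicate 2), 3077 and 2836 at 6 h and 2002 and 2145 at 24 h, with 2007 in replicate 1 at 0 h. It fell in both genotypes between 6 and 24 h (-0.59 ± 0.08, adjusted p = 0.00064 and -0.51 ± 0.08, adjusted p = 0.0012), while its rise at 6 h passed the threshold in ΔCRE cells (0.36 ± 0.10, adjusted p = 0.028) and not in WT cells (0.22 ± 0.08, adjusted p = 0.058). GNL3, nucleostemin, fell to 70.2% of its 6 h mean in WT and 67.3% in ΔCRE cells, and its feature extends 13684 bases past the annotated gene.

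DDX21, an RNA helicase of the nucleolus, fell steeply in both genotypes and had the lowest adjusted p of the set between them. DDX21 in WT cells was at 124 and 135 FPKM at 0 h, 139 and 142 at 6 h and 69.3 and 71.7 at 24 h. DDX21 in ΔCRE cells was at 168 FPKM at 0 h (replicate 2), 187 and 201 at 6 h and 100.1 and 106 at 24 h, with 30.7 in replicate 1 at 0 h. At each time point the ΔCRE libraries tested were above both WT libraries, and in each genotype the 24 h libraries were the lowest. Between 6 and 24 h the log2 fold change was -0.98 ± 0.06, adjusted p = 1.4e-05 in WT and -0.90 ± 0.06, adjusted p = 1.7e-05 in ΔCRE cells. The 6 h change from 0 h did not pass the threshold in either genotype (0.12 in WT and 0.20 in ΔCRE cells, adjusted p = 0.16 and 0.08).

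The RNA polymerase I genes moved less uniformly. POLR1E, a subunit of the enzyme, was at 58.9 and 55.3 FPKM at 0 h, 66.1 and 68 at 6 h and 44.7 and 43.7 at 24 h in WT cells. POLR1E in ΔCRE cells was at 57.3 FPKM at 0 h (replicate 2), 78.6 and 70.9 at 6 h and 44.3 and 44.8 at 24 h, with 61.5 in replicate 1 at 0 h. It was highest at 6 h and lowest at 24 h, with a rise of 0.23 ± 0.06, adjusted p = 0.016 in WT and 0.38 ± 0.08, adjusted p = 0.0067 in ΔCRE cells and a fall of -0.59 ± 0.06, adjusted p = 0.00015 and -0.73 ± 0.06, adjusted p = 4.4e-05. POLR1A, the largest catalytic subunit, fell to 69% of its 6 h mean in WT and 63.9% in ΔCRE cells. POLR1B, the other catalytic subunit, fell less, with 15.3 and 15.9 FPKM at 0 h, 17.3 and 17 at 6 h and 14.6 and 15 at 24 h in WT cells (-0.20 ± 0.05, adjusted p = 0.015 for 24 h against 6 h). POLR1B in ΔCRE cells was at 14.6 FPKM at 0 h (replicate 2), 16.4 and 15.7 at 6 h and 13.8 and 13.8 at 24 h, with 5.65 in replicate 1 at 0 h (-0.20 ± 0.05, adjusted p = 0.013). Both catalytic subunits were thus lowest at 24 h. RRN3, the initiation factor that carries growth signals to the polymerase, fell to 84.4% in WT and 80.3% in ΔCRE cells. POLR1C, which RNA polymerases I and III share, was not called in any of the 9 comparisons and lay between 27.7 and 32.6 FPKM in the 11 libraries.

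UBTF, the factor that keeps ribosomal DNA open for transcription, went the other way at 6 h. UBTF in WT cells was at 32.9 and 29.7 FPKM at 0 h, 25.9 and 23.3 at 6 h and 29 and 26.9 at 24 h. UBTF in ΔCRE cells was at 34.4 FPKM at 0 h (replicate 2), 25.5 and 24.6 at 6 h and 26.9 and 24.4 at 24 h, with 35 in replicate 1 at 0 h. Both 6 h libraries of WT cells were below both of its 0 h libraries. UBTF fell at 6 h in WT (log2 fold change -0.34 ± 0.08, adjusted p = 0.0091) and in ΔCRE cells (-0.44 ± 0.10, adjusted p = 0.01), the 1 gene of the set called lower at 6 h in ΔCRE cells (1 of 3 with TPM). Its 24 h values did not differ from 6 h past the threshold (0.18 ± 0.08, adjusted p = 0.097 in WT and 0.03 ± 0.08, adjusted p = 0.77 in ΔCRE cells).

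Among factors of the small subunit, WDR43 and UTP20 fell between 6 and 24 h with no called rise at 6 h. WDR43, a subunit of the small subunit processome, was at 51.9 and 54.1 FPKM at 0 h, 50.5 and 52.5 at 6 h and 28 and 30.2 at 24 h in WT cells. WDR43 in ΔCRE cells was at 52.2 FPKM at 0 h (replicate 2), 56 and 59.4 at 6 h and 30.5 and 32.3 at 24 h, with 26.3 in replicate 1 at 0 h. The 0 h and 6 h libraries tested overlapped or lay close, and those at 24 h were far below both. The fall was -0.80 ± 0.06, adjusted p = 3.3e-05 in WT and -0.86 ± 0.06, adjusted p = 1.9e-05 in ΔCRE cells. UTP20, another processome subunit, was at 14.1 and 15.4 FPKM at 0 h, 13.8 and 14.3 at 6 h and 8.51 and 8.66 at 24 h in WT cells. UTP20 in ΔCRE cells was at 14.5 FPKM at 0 h (replicate 2), 14.4 and 13.8 at 6 h and 9.14 and 9.35 at 24 h, with 4.6 in replicate 1 at 0 h. Its pattern was the same, with -0.65 ± 0.06, adjusted p = 9.5e-05 in WT and -0.56 ± 0.06, adjusted p = 0.00016 in ΔCRE cells. NOP14 and BYSL act in small subunit assembly. NOP14 fell to 77.7% of its 6 h mean in WT and 73.6% in ΔCRE cells, and BYSL to 85.3% and 74.9%. HEATR1, whose feature runs 30817 bases past the annotated gene, fell to 77.1% in WT cells. WDR75 had replicates far apart (SD of 5.33 FPKM at 6 h and 5.53 at 24 h in WT cells) and was called in no comparison.

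RRP12, which acts in export and maturation of both subunits, had the second largest rise at 6 h in WT cells. RRP12 in WT cells was at 42.7 and 39.5 FPKM at 0 h, 59.9 and 57.5 at 6 h and 39.2 and 38.4 at 24 h. RRP12 in ΔCRE cells was at 36.5 FPKM at 0 h (replicate 2), 51.5 and 49.6 at 6 h and 30.03 and 28.2 at 24 h, with 31 in replicate 1 at 0 h. The 6 h libraries stood above all others, and in WT cells the 24 h libraries were back just under the 0 h range. RRP12 rose at 6 h by 0.51 ± 0.06, adjusted p = 0.00025 in WT and 0.46 ± 0.07, adjusted p = 0.0021 in ΔCRE cells and fell by 24 h (-0.58 ± 0.06, adjusted p = 0.00013 and -0.78 ± 0.06, adjusted p = 2.7e-05). DDX10, a helicase of the small subunit pathway, was called in no time comparison of WT cells. DDX10 in WT cells was at 17.5 and 19.6 FPKM at 0 h, 17.7 and 18.4 at 6 h and 17.3 and 18 at 24 h. DDX10 in ΔCRE cells was at 17.5 FPKM at 0 h (replicate 2), 21.5 and 22.1 at 6 h and 20.9 and 21.1 at 24 h, with 16.1 in replicate 1 at 0 h. Its rise at 6 h passed the threshold in ΔCRE cells (0.30 ± 0.08, adjusted p = 0.019), against replicate 2 alone, and in WT cells the value was -0.04 ± 0.06, adjusted p = 0.67.

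In the large subunit group, BOP1, PES1 and WDR12 form 1 complex that processes the precursor of the large ribosomal RNAs, and their values are given side by side. BOP1 in WT cells was at 82.6 and 67.8 FPKM at 0 h, 102 and 95.3 at 6 h and 66.8 and 62.4 at 24 h. BOP1 in ΔCRE cells was at 86.7 FPKM at 0 h (replicate 2), 102 and 99.3 at 6 h and 67.6 and 62.3 at 24 h, with 105 in replicate 1 at 0 h. It peaked at 6 h and was lowest at 24 h in both genotypes. BOP1 rose at 6 h in WT cells (0.39 ± 0.09, adjusted p = 0.0087) and fell by 24 h (-0.60 ± 0.09, adjusted p = 0.001 in WT and -0.62 ± 0.09, adjusted p = 0.00076 in ΔCRE cells). WDR12 in WT cells was at 48.6 and 48.8 FPKM at 0 h, 43.4 and 43.8 at 6 h and 37.4 and 38.3 at 24 h, a decline at each step. WDR12 in ΔCRE cells was at 47.2 FPKM at 0 h (replicate 2), 47.8 and 47 at 6 h and 38.3 and 38.4 at 24 h, with 36.8 in replicate 1 at 0 h, a drop at 24 h alone. WDR12 fell at 6 h in WT cells (-0.16 ± 0.04, adjusted p = 0.021) and by 24 h in WT (-0.20 ± 0.04, adjusted p = 0.0071) and ΔCRE cells (-0.30 ± 0.04, adjusted p = 0.00084). PES1 lay between 87.7 and 104.6 FPKM in the 11 libraries and was called in no comparison (-0.17 ± 0.08 for 24 h against 6 h in WT cells, adjusted p = 0.12).

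NOP2, a methyltransferase of the large ribosomal RNA, had one of the smallest called falls. NOP2 in WT cells was at 74.4 and 69.7 FPKM at 0 h, 82.7 and 81.2 at 6 h and 73.5 and 70.2 at 24 h. NOP2 in ΔCRE cells was at 81.5 FPKM at 0 h (replicate 2), 83.7 and 81.3 at 6 h and 75.5 and 69.4 at 24 h, with 53 in replicate 1 at 0 h. The values at 24 h were back in the 0 h range in WT cells, and the fall from 6 h was -0.19 ± 0.06, adjusted p = 0.031 in WT and -0.19 ± 0.06, adjusted p = 0.03 in ΔCRE cells. PPAN, an assembly factor of the large subunit, fell by a like amount, with 51.6 and 47.4 FPKM at 0 h, 57.5 and 57.6 at 6 h and 51.2 and 49 at 24 h in WT cells (-0.20 ± 0.06, adjusted p = 0.02 for 24 h against 6 h). PPAN in ΔCRE cells was at 57.1 FPKM at 0 h (replicate 2), 59.5 and 57.2 at 6 h and 48.7 and 49.8 at 24 h, with 64.1 in replicate 1 at 0 h (-0.24 ± 0.06, adjusted p = 0.0081). The feature read as PPAN also carries the neighbouring gene P2RY11 and runs 8051 bases past PPAN itself. NOP16, another such factor, rose at 6 h (0.35 ± 0.06, adjusted p = 0.0028 in WT and 0.34 ± 0.08, adjusted p = 0.012 in ΔCRE cells) and fell to 66.2% and 60.05% of its 6 h mean. RRP1B and RRS1, further factors of the large subunit, fell with no called rise at 6 h, RRP1B to 67.9% and 69.2%, and RRS1 from 37.4 and 36.3 to 26 and 25 FPKM in WT and from 29.6 and 30.5 to 23.1 and 22.4 in ΔCRE cells.

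Counted over the set, the change at 6 h was smaller and depended more on scaling than the fall that followed. In WT cells 11 of 36 genes rose at 6 h and 2 (UBTF and WDR12) fell, against 23.3% of features higher and 21.1% lower. The 11 were MAX, RRP12, BOP1, NOLC1, NOP16, RRP9, DKC1, POLR1E, NCL, PPAN and NOP2. In ΔCRE cells 13 rose and UBTF fell, against 16.8% and 13% of features, and 8 genes rose in both genotypes (MAX, RRP12, NOLC1, NOP16, RRP9, DKC1, POLR1E and NCL). The median log2 fold change was 0.12 in WT and 0.14 in ΔCRE cells. Rescaling to TPM moved the median of all features by -0.12 in WT and -0.13 in ΔCRE cells. The split became 6 higher and 4 lower in WT and 6 higher and 3 lower in ΔCRE cells, with medians of the set of 0.01 and 0.00. Of all 11256 features, 1894 were then higher and 3513 lower in WT, and 1201 and 2578 in ΔCRE cells. The rises of DKC1, NCL, POLR1E, NOP2 and PPAN in WT cells were among the calls lost. With quantile normalization the split was 7 and 2 in WT and 8 and 2 in ΔCRE cells. Over all 11256 features it was 2317 and 2926 in WT and 1659 and 1679 in ΔCRE cells. With all 12 libraries 1 gene (RRP12, higher) was called in WT cells (8.02% of features) and 3 in ΔCRE cells (MYC and RRP12 higher, UBTF lower, 9.64%). Without WT 0 h replicate 2, WT 6 h replicate 1 or WT 6 h replicate 2, 8 genes were called in WT cells.

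Against 0 h, the level at 24 h in WT cells was lower for 21 of 36 genes and higher for MAX and MXI1, when 28.2% of features were lower and 26.5% higher. The median log2 fold change was -0.33, against -0.02 over all features. MYC (-0.87 ± 0.07, adjusted p = 1.7e-05), DDX21 (-0.86 ± 0.06, adjusted p = 1.4e-05) and WDR43 (-0.84 ± 0.06, adjusted p = 1.3e-05) were the furthest below 0 h, at 53%, 54.5% and 55% of the 0 h mean. DKC1, UTP20, NOLC1 and NCL followed, at 59.5%, 58.3%, 64.3% and 65.4%. This comparison shares its 24 h libraries with that of 24 h and 6 h and is no independent measurement of the fall. With all 12 libraries 5 genes were lower and none higher (11.4% of features called).

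Between genotypes limma called 5 of the 36 genes at 6 h and 4 at 24 h, against 9.83% and 6.33% of all features in either direction. At 6 h DDX21 and DDX10 were higher in ΔCRE cells and MAX, NOLC1 and RRS1 lower, 2 and 3 of 36, against 3.62% of features higher and 6.22% lower. At 24 h DDX21 was higher and RRP12, MXI1 and NOLC1 were lower, 1 and 3 of 36, against 2.35% and 3.97%. At 0 h limma called 0 of 36 (1.69% of features in either direction) with 7 at an unadjusted p under 0.05, and rested on 1 ΔCRE library. The median difference of the set was 0.07 on the log2 scale at 6 h and 0.01 at 24 h. For the change from 6 to 24 h, a difference between genotypes was called by limma for 0 of 36 genes (0.16% of features), with 2 at an unadjusted p under 0.05, and the furthest from 0 was MYC at -0.32. With all 12 libraries 0 of 36 genes were called at 0, 6 or 24 h, where 0.151%, 0.284% and 0.169% of features were, and 0 for the change from 6 to 24 h.

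DDX21 was 138% of its WT mean at 6 h and 146% at 24 h (log2 fold change 0.46 ± 0.06, adjusted p = 0.0038 and 0.54 ± 0.06, adjusted p = 0.0026). NOLC1 was 85.5% and 83% of WT (-0.22 ± 0.05, adjusted p = 0.023 and -0.26 ± 0.05, adjusted p = 0.016). RRP12 was 75% of WT at 24 h (-0.40 ± 0.06, adjusted p = 0.0072) and at 6 h its difference of -0.21 missed the threshold (adjusted p = 0.063). In each of these 3 genes the ΔCRE and WT libraries did not overlap at 6 h or at 24 h. MXI1 was 76.8% of WT at 24 h (-0.32 ± 0.08, adjusted p = 0.044), and DDX10 121% at 6 h (0.26 ± 0.06, adjusted p = 0.038). RRS1, an assembly factor of the large subunit, was measured at 39 and 34.2 FPKM at 0 h, 37.4 and 36.3 at 6 h and 26 and 25 at 24 h in WT cells. RRS1 in ΔCRE cells was at 32.1 FPKM at 0 h (replicate 2), 29.6 and 30.5 at 6 h and 23.1 and 22.4 at 24 h, with 29.4 in replicate 1 at 0 h. At 6 h both ΔCRE libraries were below both WT libraries (-0.28 ± 0.07, adjusted p = 0.034). Leaving out 1 library at a time, DDX21 was the gene called every time. The count at 6 h fell to 1 without any 1 of the 4 WT and ΔCRE 6 h libraries and to 2 without any 1 of the 24 h libraries. The count at 24 h fell to 1 without WT 24 h replicate 1 or ΔCRE 24 h replicate 2 and to 2 without WT 24 h replicate 2 or ΔCRE 24 h replicate 1.

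The 4 genes that differed at 24 h, DDX21, RRP12, NOLC1 and MXI1, were the 4 genes of the set on chromosome 10 (hg19), and their neighbours there differed in the same direction. DDX21 lies from 70715878 to 70744825, RRP12 from 99116457 to 99161127, NOLC1 from 103911932 to 103923627 and MXI1 from 111967362 to 112047123. Of 53 tested features within 5 Mb of DDX21, 34 were higher in ΔCRE cells at 6 h and 33 at 24 h, with a median log2 difference of 0.36 at both. Around NOLC1 30 of 73 were lower at 6 h and 30 at 24 h, with medians of -0.27 and -0.30. Around RRP12 27 of 72 were lower at each time, with medians of -0.25 and -0.28, and around MXI1 7 of 21 at 6 h and 6 at 24 h, with medians of -0.18. At 0 h, from 1 ΔCRE library, the medians were 0.34 around DDX21 and -0.28 to -0.29 around the other three. For the 32 genes on other chromosomes the neighbours had medians of -0.04 to 0.18 at 6 h and of -0.10 to 0.22 at 24 h. DDX10, MAX and RRS1, called at 6 h, were on chromosomes 11, 14 and 8, with neighbour medians of 0.03, -0.03 and -0.04. The part of the neighbourhood in the difference of a gene was not tested. The fall of DDX21, NOLC1 and RRP12 from 6 to 24 h had no such counterpart, with medians of -0.08, 0.01 and 0.00 for their neighbours in WT cells.

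Other genes of the same machinery, taken from lists by role and not from the set of 36, fell between 6 and 24 h as well. Of 32 further genes of the small subunit processome 24 fell in WT cells and 22 in ΔCRE cells, with medians of -0.33 and -0.34. CIRH1A fell furthest in WT (-0.63) and PNO1 in ΔCRE cells (-0.68). Of 35 further large subunit factors 26 fell in each genotype (medians -0.29 and -0.38), with RRP1 the furthest (-0.72 and -0.93). Of 13 further genes of snoRNPs and their assembly 8 fell in WT and 6 in ΔCRE cells (medians -0.21 and -0.32), with ZNHIT6 at -0.64 in WT and GAR1 at -0.84 in ΔCRE cells. The list of 14 other RNA polymerase I genes includes subunits shared with other RNA polymerases, such as POLR2K. Of these 14 genes 5 fell in WT and 7 in ΔCRE cells, with CD3EAP at -0.54 and -0.62. Of 15 RNA polymerase III genes 7 and 9 fell while POLR3GL rose (0.83 and 0.95). These counts stand against 26.3% of features lower in WT and 27.5% in ΔCRE cells. The list counts here and below use FPKM, and counts of the lists with TPM are not given. For 24 h against 6 h, TPM moved the median of all features by 0.10 in WT and 0.09 in ΔCRE cells.

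Ribosomal proteins themselves moved little. Of 78 tested genes of cytosolic ribosomal proteins 10 (12.8%) were lower at 24 h than at 6 h in each genotype, with medians of -0.09 in WT and -0.08 in ΔCRE cells. RPL14 in WT (-0.34) and RPL28 in ΔCRE cells (-0.40) were the furthest below. Of 22 other known MYC targets 12 fell in WT and 13 in ΔCRE cells (medians -0.25 and -0.29). SRM, the spermidine synthase, fell furthest, from 166 and 163 to 77.7 and 73 FPKM in WT cells and from 188 and 173 to 79.1 and 73.2 in ΔCRE cells (-1.12 and -1.24). ODC1, which precedes SRM in polyamine synthesis, was the furthest above 0 h at 6 h, from 124 and 112 to 336 and 361 FPKM in WT cells (1.56) and from 98.6 (replicate 2) to 363 and 344 in ΔCRE cells (1.83). Of 6 tested genes of the MYC and MAX network, 2 fell and 1 rose in WT cells, and 1 fell and 2 rose in ΔCRE cells. MXD4, a further competitor of MYC, rose in both (0.40 and 0.25). MXD3 went the other way, with -0.21 in WT and -0.22 in ΔCRE cells, where it was the gene that fell.

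Between genotypes, 8 of the 215 list genes were called at 6 h and 9 at 24 h, against 9.83% and 6.33% of all features in either direction. On chromosomes 9, 10 or 17 lay 5 of the 8 and 7 of the 9. These chromosomes were picked with earlier results of these data known, so the counts are a description. The share of the 215 genes that lies on them is not given. On chromosome 10, POLR3A and RPS24 were higher in ΔCRE cells (0.46 and 0.38 at 6 h, 0.42 and 0.43 at 24 h) among neighbours with medians of 0.33 and 0.39, and PRDX3 was lower (-0.27 and -0.20) among neighbours at -0.23 and -0.21. SURF6 on chromosome 9 (-0.28 and -0.41) and RPL26 on chromosome 17 (-0.34 and -0.37) were lower among neighbours that were lower too (medians of -0.26 and -0.29 for SURF6, -0.22 and -0.27 for RPL26). TAF1A, a subunit of the RNA polymerase I selectivity factor on chromosome 1, was higher at 6 h (0.43), with a neighbour median of 0.25. C1QBP on chromosome 17 was lower at 24 h (-0.28), with a neighbour median of -0.27. The other genes called had neighbours with medians nearer to 0. These were IMP3 (-0.32, neighbours at -0.01) and UTP15 (0.40, neighbours at 0.13) at 6 h, and RCL1 on chromosome 9 (0.25, neighbours at 0.02), GNL2 (0.26, neighbours at 0.02) and NAMPT (0.59, neighbours at 0.04) at 24 h.

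In ΔCRE 0 h replicate 1, the library that stood apart, the set did not move as a whole. There 11 of the 36 genes were above the highest of the other 11 libraries, 12 were below the lowest and 13 lay within their range, while over all features 35% were above and 36.1% below. FBL (660.3 FPKM), PES1 (145) and POLR1C (50.8) were among those above, and DDX21 (30.7 FPKM, 18.3% of replicate 2), POLR1A (4.76) and UTP20 (4.6) among those below.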

How the data were processed

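RNA-sequencing libraries of WT and ΔCRE MDA-MB-231 cells (6 groups of 2, grouped by the labels) were prepared by the authors from total RNA with a stranded mRNA kit, mapped to hg19 with TopHat and quantified with Cufflinks. The authors deposited FPKM values, 1 column per library. The gene annotation and any scaling between libraries are not given in the sources used here, and FPKM keeps no depth. The names of the columns for ΔCRE 6 h replicate 2 and ΔCRE 0 h replicate 2 have a digit in place of a letter, and they were read by the header line above them. Features naming more than 1 gene (405 of 24331) kept their FPKM.

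From the deposited FPKM, log2(FPKM + 1) was fitted with limma 3.58.1 (R 4.3.3, lmFit and eBayes with trend) in 1 model of 6 groups over 11 libraries, without ΔCRE 0 h replicate 1. The 11256 features with a mean of at least 1 FPKM were tested, Benjamini-Hochberg adjusted p-values under 0.05 were called. This scale understates changes of genes with low FPKM. In simulated data with 200 of 11256 features changed by a log2 value of 1, 95% were recovered for WT 6 h against 0 h, 94% for ΔCRE against WT at 6 h and 91% at 0 h, and 3.55%, 2.08% and 5.21% of calls were false. Smaller changes were not simulated, so recovery is unknown for the genotype differences of the set (at most 0.54) and its 6 h rises in WT cells (at most 0.60). Values by library are given for MYC, MAX, MXD1, MXI1 and ETS1, and for the 3 highest and 3 lowest called genes of 4 comparisons. DKC1, RRP9, NCL, NPM1, POLR1E, WDR43 and UTP20 were added after their values were seen, as were PES1 and POLR1C as examples. Of each other list, the highest or lowest called gene is named. The genes and lists were chosen with earlier results of these data known. The alternatives changed the pseudocount (0.1), the filter (none, or a mean of at least 5 FPKM), or used quantile normalization, TPM, all 12 libraries, the replicate number as a block, no trend, the compared groups alone and each library left out. Promoters come from RefSeq (GRCh38.p14) and snoRNA positions from GENCODE on GRCh37. Gene coordinates are those of the files (hg19). Tables and figures were made with Python 3.11.15, pandas 2.3.3 and numpy 2.4.6.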

Additional observations from a re-analysis of the deposited data

Results flagged for a closer look

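FBL and POLR1C were singled out because their levels in ΔCRE 0 h replicate 1, a library outside the tests, lay more than 1.5 times above the highest of the other 11 libraries. FBL was at 2.05 times that level and POLR1C at 1.56 times. These are ratios of FPKM not divided by the sum of the library, which was 1.42333e+06 against 566255 to 651080 in the others. Ribosomal protein genes made up 43.0% of the FPKM sum in this library, against 24.6% to 27.0% in the others, and gut epithelium markers summed to 2463 FPKM. The part of the FPKM sum, the ribosomal protein share or the gut markers in the values of FBL and POLR1C was not tested. With 2 libraries a group, no test for an outlying value within a group was run, and this library was set apart by its totals and marker sums.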

How the results depend on the processing

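The 24 h fall was called for at least 21 of 36 genes in WT and 25 in ΔCRE cells under each alternative other than the 12 libraries, and no called gene changed direction under any alternative run. TPM gave the 21 and 25, where 1780 and 2082 of 11256 features were lower. With all 12 libraries the number of genes called was 1 for WT 6 h against 0 h, 5 for WT 24 h against 0 h, 10 for WT 24 h against 6 h, 3 for ΔCRE 6 h against 0 h, 12 for ΔCRE 24 h against 6 h and 0 for ΔCRE against WT at 6 and at 24 h. For WT 24 h against 6 h, DDX21 had the same log2 fold change (-0.98) in this fit and in the main one. Its standard error was larger in this fit, at 0.61. The cause of the change in the number of genes called was not tested. With the compared groups fitted alone, it was 8 for WT 6 h against 0 h (36.5% of all features called), 5 for ΔCRE 6 h against 0 h (11.7%), and 1 for ΔCRE against WT at 6 h (3.23%) and at 24 h (1.17%), with fewer samples in each fit. TPM gave 9 for ΔCRE 6 h against 0 h (33.6%).

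Same-numbered replicates of the 2 genotypes at the same time had deviations correlated by 0.0999 (6 h), 0.107 (24 h) and 0.111 (0 h). The 0 h value includes ΔCRE 0 h replicate 1. The numbers were not taken to pair the libraries in the main fit. Whether libraries of the same number share a difference across all groups was not tested. With the replicate block, genes called for ΔCRE against WT were 3 at 0 h, 10 at 6 h and 7 at 24 h, against 0, 5 and 4 without it. Calls over all features rose too, from 1.69%, 9.83% and 6.33% to 5.82%, 16% and 12.5%. In the other comparisons the block moved no count by more than 1.5 times. For WT 24 h against 6 h, 46.8% of all features were called without it and 54.6% with it.

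Leaving out each library in turn gave 8 to 14 genes for WT 6 h against 0 h (8 without WT 0 h replicate 2, WT 6 h replicate 1 or WT 6 h replicate 2), 18 to 24 for WT 24 h against 0 h, 23 to 30 for WT 24 h against 6 h, 10 to 14 for ΔCRE 6 h against 0 h and 27 to 29 for ΔCRE 24 h against 6 h. For ΔCRE against WT it gave 1 to 5 at 6 h and 1 to 4 at 24 h. Without ΔCRE 0 h replicate 2 the comparisons with ΔCRE 0 h could not be fitted. FPKM leaves the depth unknown, so the counting error of genes with few fragments, such as MXD1, cannot be given.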
